A study of Mus musculus with 74 samples.

Results

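Poly(A) RNA from whole liver was sequenced in 8 mice, 4 with a hepatocyte-specific deletion of Gps2 (LKO) and 4 without it (WT), and the read counts of every gene in the deposited table were compared between the groups. These 8 libraries were chosen from the 74 of the series as the RNA-seq libraries labelled GPS2 WT1 to WT4 and GPS2 LKO1 to LKO4. Of 14583 genes in the table, 12220 had enough reads to be tested. All 8 mice were labelled strain C57BL/6, age 8 to 12 weeks, and were kept on normal chow. According to the methods they were males carrying floxed Gps2 alleles. The LKO mice also carried Cre recombinase under the albumin promoter, which is active in hepatocytes, so the other cells of the liver kept their Gps2. The WT mice were floxed mice without Cre, from the same breedings. The remaining libraries of the series are ChIP-seq experiments in livers of Gps2 and other mutants and their controls, and 3 of them were used here, for GPS2 in WT liver and RNA polymerase II in WT and LKO liver.

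GPS2 is a small subunit of the corepressor complex that nuclear receptors recruit to keep their target genes low. The complex is built on a scaffold such as NCOR (Ncor1), carries the histone deacetylase HDAC3, and holds the WD40 proteins TBL1X and TBL1XR1. In liver, receptors that use it include PPARα, LXR, REV-ERB and the thyroid hormone receptor, and several of these set the rhythm and the amount of lipid, bile acid and glucose metabolism.

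The libraries held 13.2 to 20.1 M reads in genes. Counts were scaled by trimmed-mean (TMM) factors, so that a normalized count below is a read count brought to a common library size. The first principal component held 71.0% of the variance and separated the groups. The second, with 9.71%, set library LKO2 apart from the other LKO libraries. The 10 genes with most reads took 19.5 to 19.9% of the reads of a WT library and 24.2 to 26.1% of an LKO library, and albumin alone took 8.74 to 9.11% and 11.4 to 12.6%. Y-linked Ddx3y was read in all 8 libraries (1209 to 1362 normalized counts in WT, 1200.5 to 1504 in LKO), and Xist, the RNA of the inactive X chromosome, had 0 to 15 raw reads in a library. Among the liver's defining genes, the summed normalized counts of 14 hepatocyte markers were 2105860 to 2169670 in the WT and 2753420 to 3210070 in the LKO livers. This sum is weighted towards abundant transcripts such as albumin. By the test described below, 9 of the 14 were higher, 2 lower (Apob and Hnf4a) and 3 not called. Their median log2 fold change was 0.23. It was 0.09 with the gene length trend described below removed and 0.04 when scaled by total counts alone.

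Gene length moved with the groups. Across genes, the log2 fold change fell with exon length (Spearman rho = -0.40 over 12220 genes, a description, since genes are not independent replicates). Among the 20% of genes with the shortest exons (20 to 1655 bases) the median log2 fold change was 0.26 and 42.7% of genes were called higher, while among the 20% with the longest (4977 to 83437 bases) the median was -0.23 and 44.1% were called lower. The trend was seen in LKO1, LKO3 and LKO4. Library LKO2 had the slope of the WT libraries (0.24 log2 units per 10-fold increase in length, against 0.20 to 0.31 in WT and -0.53, -0.23 and -0.50 in LKO1, LKO3 and LKO4), and LKO2 alone against WT gave a rho of -0.03. The cause of the trend was not tested. Each comparison was therefore fitted again with a smooth length trend taken out of every library, which left a rho of 0.02, and the text gives that value where it changes a call.

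**Figure D1:**
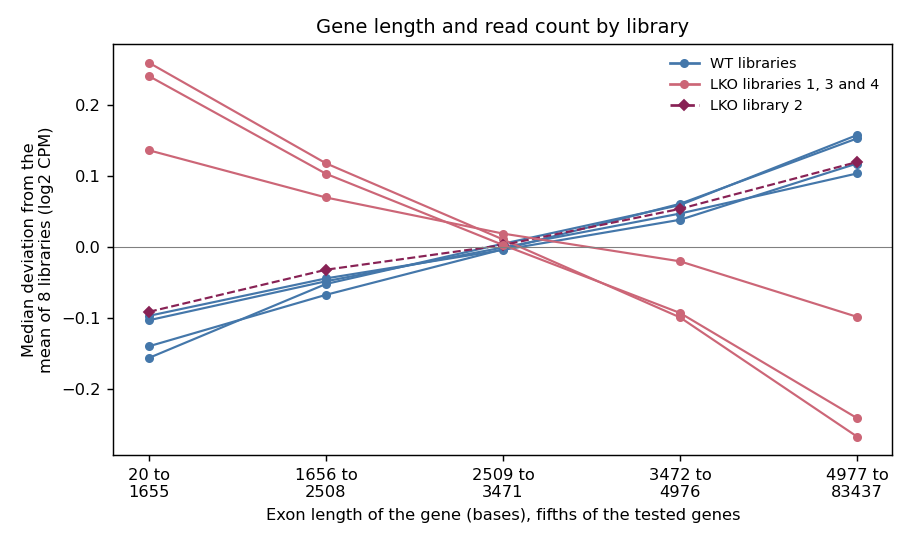
Median deviation of each library from the mean of all 8 libraries (log2 CPM, vertical axis) in 5 equal groups of the tested genes by exon length in bases (horizontal axis). The lines of LKO libraries 1, 3 and 4 fall from short to long genes, while that of LKO library 2 (dashed) rises like those of the 4 WT libraries.

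Gps2 itself was measured first. It had 259, 249, 263 and 238 normalized counts in the WT livers and 199.9, 155, 144 and 204 in the LKO livers (log2 fold change -0.53 ± 0.11 SE, edgeR adjusted p = 0.0021). Every LKO library was below every WT library, and the LKO mean was 69.7% of the WT mean (exact permutation p = 0.0286, two-sided, the smallest that 4 against 4 libraries can give). A count over the whole gene cannot tell the reads of liver cells without Cre from transcripts of the deleted allele. In these bulk samples fewer cells of a type and less RNA per cell cannot be told apart.

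The other subunits given here were lower or did not pass the test. Ncor1, the NCOR scaffold, changed by -0.63 on the log2 scale and Tbl1x by -0.58 (adjusted p = 0.0021 and 0.013), and in Tbl1x the groups overlapped. Hdac3 and Tbl1xr1 did not pass (log2 fold change -0.12 and -0.13, adjusted p = 0.2 and 0.3). Ncor1 and Tbl1xr1 have long exons, and with the length trend removed their log2 fold changes were -0.25 and 0.17, the second of them reversed (edgeR adjusted p = 0.04). Hdac3 was then called lower too (-0.23, edgeR adjusted p = 0.0055).

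Of the 12220 genes tested, 2856 (23.4%) rose and 2621 (21.4%) fell in the LKO livers when an adjusted p below 0.05 was required (edgeR quasi-likelihood test, Benjamini-Hochberg). When a log2 fold change of 1 or more was required too, 397 rose (3.25%) and 169 fell (1.38%), which are called strong rises and falls below. The 4 LKO libraries lay apart from the 4 WT libraries in 375 of the strong rises and 162 of the strong falls, where 20% of all tested genes lay apart upwards and 19.1% downwards. With the length trend removed the counts were 2781 and 2534, and 4145 of the 5477 calls were kept, 1331 were lost and 1 was reversed (H13, a signal peptide peptidase gene named after its value was seen, -0.15 and 0.23). Library LKO2 on its own lay above all 4 WT libraries for 392 of the 397 strong rises, against 34.0% of all genes, and below them for 163 of the 169 strong falls, against 33.6%. LKO2 was part of the fit that picked these genes, so high shares were built in. They are a description and not an independent check. Scaling by total counts alone, without TMM, moved the median log2 fold change of all tested genes from 0.03 to -0.15 and the calls to 1561 higher and 4632 lower, so that 25.2% of calls were higher against 52.1% in the main fit. All fold changes below are on the TMM scale, and where this shift turns the sign of a list's median, the median under total counts is given too. Each count of list members below is to be read beside the shares over all tested genes, 23.4% higher and 21.4% lower. With the length trend removed these shares were 22.8% and 20.7%.

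Among genes that averaged 100 or more normalized counts, the 2 largest rises were in cytochrome P450 genes. The 15 largest rises and falls were taken only from genes whose groups did not overlap. For them the separation of the groups was built in and is a description. Cyp2b9, a steroid-oxidizing enzyme of the Cyp2b family (chr7:26173409-26210660, plus strand, GRCm38), had 0.977, 1.87, 1.83 and 3.01 normalized counts in the WT livers and 883, 1009, 766 and 821 in the LKO livers. Its LKO mean was 452 times the WT mean (log2 fold change 8.74 ± 0.19 SE, edgeR adjusted p = 6.2e-13). Cyp2a4, a steroid 15-alpha-hydroxylase (chr7:26307192-26315088, plus strand), had 38.1, 41.2, 45.8 and 82.2 in the WT livers and 20300.1, 16304, 19516 and 19396 in the LKO livers (log2 fold change 8.51 ± 0.17 SE, edgeR adjusted p = 3.3e-13). Per kilobase of exon, Cyp2a4 went from 30.2 to 11008 normalized counts. Both genes have close relatives whose reads can be shared, so the split between family members is uncertain. In both genes the lowest LKO library was far above the highest WT library.

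Outside the P450 family, H19, an imprinted non-coding RNA that is abundant in fetal liver, had 9.77, 2.81, 2.75 and 3.01 normalized counts in the WT livers and 1063, 988, 1024 and 1095 in the LKO livers (log2 fold change 7.80 ± 0.18 SE, edgeR adjusted p = 6.8e-13). Hao2, a peroxisomal hydroxyacid oxidase, rose 102-fold, and Slc22a26, an organic anion transporter, 103-fold. Tmeff2, a transmembrane proteoglycan, had 3.01 to 14.7 normalized counts in the WT and 554 to 616 in the LKO livers (log2 fold change 6.04), and Akr1c18, which inactivates progesterone, had 4.88 to 15.04 and 195 to 248 (4.47). In all of these the LKO libraries were high together and the WT libraries sat at low counts.

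Among genes of the same level, most of the largest falls were in the major urinary protein (Mup) genes of chromosome 4, which encode pheromone carriers made by the liver. Mup21 (chr4:62147832-62150841, minus strand) had 5297, 5063, 5591 and 5328 normalized counts in the WT livers and 292, 204, 277 and 275 in the LKO livers (log2 fold change -4.35 ± 0.10 SE, edgeR adjusted p = 6.8e-13), so that the LKO mean was 0.0492 times the WT mean. Mup11 had 30512, 27259.7, 25567 and 30454 in the WT livers and 1058, 724, 359 and 1102 in the LKO livers (log2 fold change -5.14), and Mup17, Mup18, Mup14, Mup16 and Mup7 changed by -6.38, -5.14, -4.46, -3.86 and -2.91. Mup20, the male pheromone darcin, had a log2 fold change of 0.05 (edgeR adjusted p = 0.67), and taking out the length trend gave -0.25 (edgeR adjusted p = 0.0009). Mup genes are near-identical and overlap in the annotation. Of the exon bases of Mup17, 46.5% are shared with the predicted gene Gm2083 (-6.27), and of those of Mup11, 33.5% with Mup2. Values of single members are therefore uncertain. For each member given as lower every LKO library was below every WT library, which the choice of the largest falls required.

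**Figure D2:**
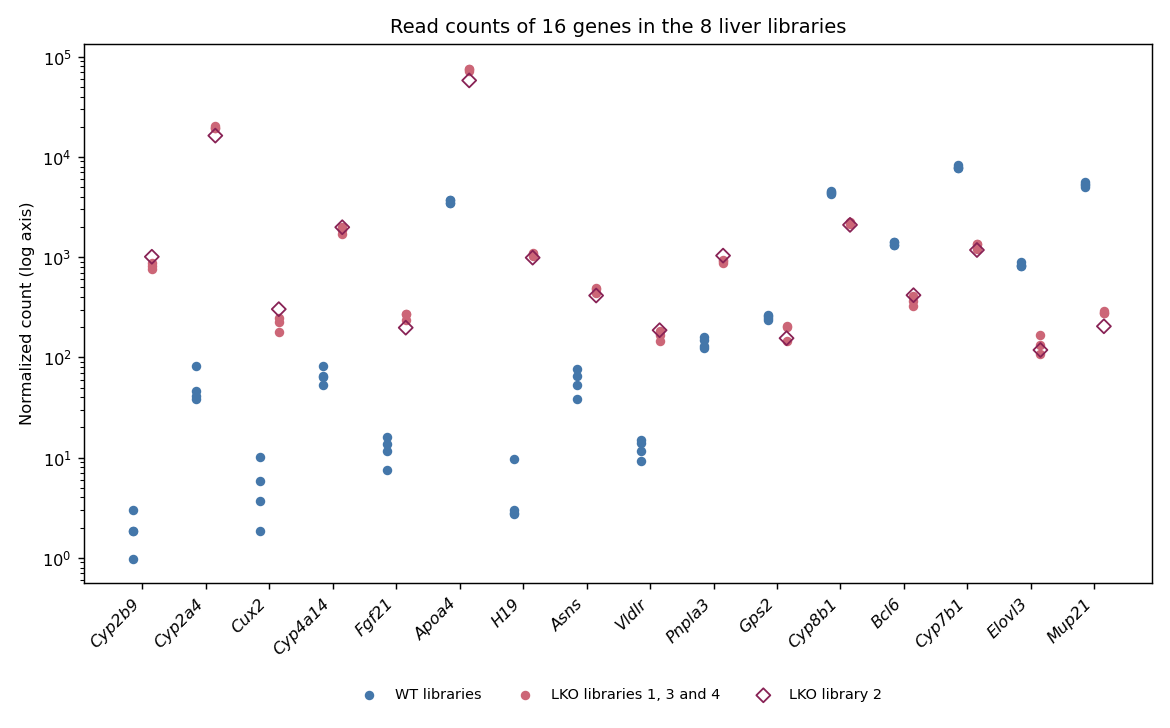
Normalized counts (log axis) of 16 genes in each of the 8 libraries, WT beside LKO, with LKO library 2 as an open diamond. The 4 LKO libraries of Cyp2b9, Cyp2a4, H19, Cux2 and Apoa4 lie together far above the WT libraries, and those of Mup21, Elovl3, Cyp7b1 and Bcl6 lie below them.

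Both ends of the ranking held genes known to differ between the sexes in mouse liver. Adult male and female hepatocytes differ in many transcripts because growth hormone is secreted in pulses in males and more evenly in females, which drives STAT5 in a different rhythm, and BCL6 and CUX2 are repressors that take part in this control. Of 29 tested genes on a list of female-biased liver genes (40 listed), 28 were higher, 18 of them strongly, and 0 were lower, with a median of 1.72 beside 0.03 over all tested genes. On a list of male-biased genes, 34 of 38 tested members were lower (39 listed), 21 of them strongly, and 1 was higher, with a median of -1.06. The medians were 1.90 and -1.18 with the length trend removed. Of the 40 listed female-biased genes, 35 were in the table, and those with too few reads left the count. Members with few or no WT reads, such as Sult2a2 and Cyp2b9, passed the read filter through the LKO libraries. They could only be called higher. Moxd1 and Mup1 passed through the WT libraries and could only be called lower.

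Among the female-biased genes, Cux2, which represses male-biased genes in female liver, had 5.86, 1.87, 3.67 and 10.03 normalized counts in the WT livers and 227, 303, 249 and 180.2 in the LKO livers (log2 fold change 5.49 ± 0.27 SE, edgeR adjusted p = 3.5e-09). Cyp2c40 and Cyp2c69, of the Cyp2c family, rose 19.4-fold and 23.9-fold. Sult2a2, a bile acid and steroid sulfotransferase, had 0, 0, 0 and 0 in the WT livers and 22.3, 24.02, 12.7 and 20.7 in the LKO livers, so no fold is given. Prlr, the prolactin receptor, rose by 0.72 and Trim24, a corepressor of the retinoic acid receptor, by 0.75 on the log2 scale. In LKO2, all 29 tested female-biased genes lay above all 4 WT libraries, although LKO2 counted towards the filter that let members with few WT reads be tested.

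Among the male-biased genes, Bcl6 had 1309, 1405, 1418 and 1332 normalized counts in the WT livers and 362, 417, 325 and 409.6 in the LKO livers (log2 fold change -1.85 ± 0.08 SE, edgeR adjusted p = 1.1e-09). Cyp7b1, the oxysterol 7-alpha-hydroxylase of the alternative bile acid pathway, had 7732, 7727, 7919 and 8268 in the WT livers and 1355, 1178, 1211 and 1338 in the LKO livers (log2 fold change -2.64 ± 0.06 SE, edgeR adjusted p = 1.6e-12). Elovl3, which elongates very long fatty acids, had 894, 809, 813 and 828 in the WT livers and 134, 119, 109 and 167 in the LKO livers (log2 fold change -2.68 ± 0.11 SE, edgeR adjusted p = 4.6e-10). In each of these 3 genes the LKO libraries were all below the WT libraries and close to each other. Sult5a1, a sulfotransferase, changed by -3.65, Selenbp2, a selenium-binding protein, by -2.71, and Nat8f5, an acetyltransferase outside the list, by -2.48.

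At the bottom of the scale, Moxd1, a monooxygenase, had 137, 136, 121 and 132 in the WT livers and 0, 0, 0.975 and 0 in the LKO livers, and Mup1 had 80.1, 114, 117 and 111 in the WT livers and 0, 2.40, 0 and 0 in the LKO livers. Their LKO counts rest on at most 3 reads. The 1 male-biased member that rose was Dnaic1, an axonemal dynein chain (log2 fold change 1.29, adjusted p = 0.00048). Genes with at most 3 reads in a group were also set to a bound of 3 reads. This touched only Sult2a2, Moxd1 and Mup1, which lie far from the list medians, so it could not move either median.

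**Figure D3:**
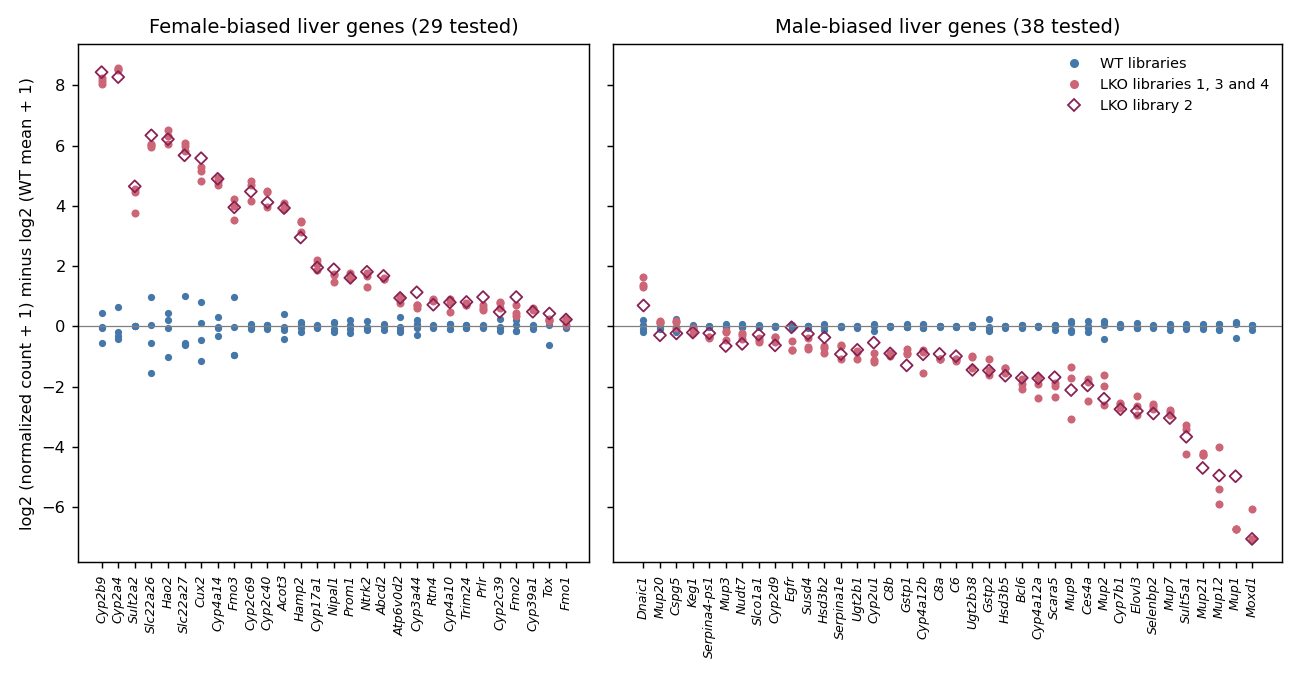
Each tested member of the female-biased list (29 genes) and the male-biased list (38 genes), as log2 (normalized count + 1) of every library minus log2 of the WT mean + 1, ordered by fold change. Nearly all LKO points, library 2 included (diamonds), lie above 0 on the left and below 0 on the right, while WT points stay near 0.

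The growth hormone axis itself changed at several steps. Of 17 tested members, 7 were higher and 4 lower, with a median of 0.10 (-0.08 under total counts alone). Socs2 and Cish, feedback inhibitors that STAT5 induces, rose by 1.19 and 1.16 on the log2 scale. Socs2 had 147, 189, 176 and 153 in the WT livers and 433, 338, 357 and 398 in the LKO livers (adjusted p = 1.6e-06), with every LKO library above every WT library. The receptor Ghr and the transcription factors Stat5a and Stat5b were lower (-0.51, -0.61 and -0.34). Igf1, the main growth hormone product of the liver, had 13439, 13653, 13896 and 13953 in the WT livers and 13031, 13831, 11377 and 12941 in the LKO livers (log2 fold change -0.10, adjusted p = 0.19). It did not pass, while taking out the length trend gave 0.22 (edgeR adjusted p = 0.023).

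Drug-metabolizing enzymes changed in both directions. Of 34 tested CYP2 and CYP3 genes, 24 were higher, 9 of them strongly, and 5 lower, with a median of 0.52. Cyp2u1 and Cyp2c67 fell (-0.89 and -0.62). Part of this list is also female-biased. Of 20 glutathione S-transferases, 13 were higher and 4 lower (8 and 5 with the length trend removed). Mgst3, a membrane-bound member, had 85.9, 85.1, 99.9 and 79.2 normalized counts in the WT livers and 316, 242, 289 and 290.4 in the LKO livers (log2 fold change 1.69, adjusted p = 6.8e-08), and Gstp1, the Pi-class enzyme, had 9849.8, 9187, 9096 and 9136 in the WT livers and 4905, 3800.4, 5599.7 and 5009 in the LKO livers (log2 fold change -0.95, adjusted p = 4e-06). Gstp1 and Gstp2 (-1.40) are near-identical and male-biased. In Mgst3 and in Gstp1 the groups did not overlap.

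Conjugating enzymes fell more often than they rose. Of 22 sulfotransferases and glucuronosyltransferases, 11 were lower and 5 higher (median -0.26). Sult2a8, a liver bile acid sulfotransferase, had 16538, 16688, 17373 and 18191 normalized counts in the WT livers and 7226, 6701, 6395 and 7549 in the LKO livers (log2 fold change -1.30, adjusted p = 2.8e-09), and Sult1a1, which sulfates phenols, had 2845, 2728, 2711 and 2938 in the WT livers and 10445, 8164, 9442 and 10141 in the LKO livers (log2 fold change 1.77, adjusted p = 7e-10). Among 24 transporters, with 7 higher and 8 lower (median 0.02, and -0.16 under total counts alone), the citrate carrier Slc13a5 rose (log2 fold change 1.83, adjusted p = 1.5e-06), and the efflux pump Abcg2 and the organic anion carrier Slc22a7 fell (-0.96 and -0.99). Of 19 targets of the oxidative stress factor NRF2, 8 were higher and 9 lower (median 0.03, and -0.15 under total counts alone). G6pdx, which makes NADPH in the pentose phosphate pathway, rose (log2 fold change 1.97, adjusted p = 8.5e-09), as did the quinone reductase Nqo1 (1.11), and Aox1, aldehyde oxidase, fell (-0.68).

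Single bile acid genes changed in both directions. Cyp8b1, which sets the share of cholic acid, had 4445, 4544, 4352 and 4289 normalized counts in the WT livers and 2262, 2098, 2207 and 2142 in the LKO livers (log2 fold change -1.02 ± 0.05 SE, edgeR adjusted p = 7.6e-09). The LKO libraries lay close to each other and did not overlap the WT range. Cyp7a1, the rate-limiting enzyme of the classical pathway, changed by -0.46 (adjusted p = 0.00072), and Abcc2 and Atp8b1, canalicular transporters, by -0.82 and -0.74. Higher values were found for Cyp39a1 (0.55) and the sterol exporter subunit Abcg5 (0.50). Over the 23 tested members, 8 were higher and 5 lower (median 0.09, and -0.09 under total counts alone), where 23.4% and 21.4% of all tested genes were.

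Targets of PPARα, the fatty acid receptor of the liver, were more often higher than lower. Of 38 tested targets, 21 were higher, 9 of them strongly, and 7 lower, 0 of them strongly (20 and 7 with the length trend removed). The median was 0.31, and 0.13 with the length trend removed. The thioesterase Acot3 had 34.2, 61.8, 44.9 and 42.1 normalized counts in the WT livers and 791, 709, 708 and 692 in the LKO livers (log2 fold change 3.98 ± 0.13 SE, edgeR adjusted p = 3.5e-11). Cyp4a14, a fatty acid ω-hydroxylase, rose by 4.85 on the log2 scale. The neighbours of Acot3 in the same gene cluster, Acot2 and Acot1, rose by 1.95 and 1.61, and Abcd2, a peroxisomal fatty acid importer, by 1.61. Retsat, retinol saturase, and Pex11a, a peroxisome division factor, fell (-0.99 and -0.63). The receptor gene Ppara was lower by the test (log2 fold change -0.39, adjusted p = 0.02, and -0.60 without LKO2) in LKO1, LKO3 and LKO4, whereas LKO2 was level with the highest WT library (5494 against 5488 normalized counts). The value with the length trend removed was -0.12 (edgeR adjusted p = 0.1), and the call was also lost without LKO1, LKO3, LKO4, WT2 or WT3 (edgeR adjusted p = 0.052 to 0.069).

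Genes of the core pathway of fatty acid oxidation had small changes. Of 26 mitochondrial β-oxidation and ketogenesis genes, 8 were higher and 5 lower with a median of 0.06 (-0.13 under total counts alone), and 4 and 7 with the length trend removed. The log2 fold change was 0.41 for Etfb (not called with the length trend removed, edgeR adjusted p = 0.1), 0.36 for Acadm and -0.32 for Etfdh. Of 36 peroxisomal genes, 9 were higher and 10 lower (median 0.04, and -0.14 under total counts alone). Acaa1b, a peroxisomal thiolase, rose (1.09) and Acox2, the branched-chain acyl-CoA oxidase, fell (-0.69).

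Lipoprotein genes held some of the largest absolute changes. Apoa4, an apolipoprotein of triglyceride-rich particles and HDL, had 3705, 3496, 3494 and 3683 normalized counts in the WT livers and 76186, 57933, 72368 and 74858 in the LKO livers (log2 fold change 4.29 ± 0.09 SE, edgeR adjusted p = 3.5e-13). The LKO mean was 19.6 times the WT mean, and the level went from 2158 to 42218 normalized counts per kilobase. No library of either group approached the other group. Vldlr, the VLDL receptor, had 11.7, 14.04, 9.17 and 15.04 in the WT livers and 147, 187, 185 and 167 in the LKO livers (log2 fold change 3.78, adjusted p = 7.6e-10). Angptl8, an inhibitor of lipoprotein lipase in muscle, rose 5.27-fold (log2 fold change 2.40) and Pltp, the phospholipid transfer protein, 3.27-fold (1.71). Pltp overlaps Ctsa on the opposite strand over 27.4% of its exon bases.

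Over the 30 tested lipoprotein and lipase genes, 18 were higher and 7 lower, with a median of 0.46 and of 0.22 with the length trend removed. Apob, the scaffold of VLDL, changed by -0.82 and by -0.36 with the length trend removed, and its LKO2 library was higher than the other LKO libraries. Sort1, a sorting receptor of APOB, fell to 0.432 times the WT mean (adjusted p = 4.8e-06).

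Lipogenic genes rose together. Of 23 tested members, 20 were higher and 0 lower, with a median of 0.69 and of 0.73 with the length trend removed, and in LKO2 all 23 lay above the WT range. Pnpla3, a lipid droplet acyltransferase and lipase, had 149, 130.1, 160.4 and 123 normalized counts in the WT livers and 865, 1035, 926 and 922 in the LKO livers (log2 fold change 2.73 ± 0.10 SE, edgeR adjusted p = 9.9e-11). Its relative Pnpla5 rose by 2.85, Fads1, the delta-5 desaturase, by 1.08, and malic enzyme Me1 by 0.94. Fatty acid synthase Fasn and the desaturase Scd1 rose by 0.69 and 0.73. The transcription factor Srebf1 rose by 0.30, while Mlxipl, which encodes the carbohydrate-responsive factor ChREBP, did not pass (log2 fold change -0.10, adjusted p = 0.4).

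Cholesterol synthesis was less uniform, with 13 of 24 members higher and 4 lower (median 0.20), against 8 higher and 10 lower under total counts alone. Pmvk, phosphomevalonate kinase, rose (log2 fold change 0.91, adjusted p = 3.4e-05), and the regulator Srebf2 fell (-0.56). Of 18 lipid droplet genes, 4 were higher and 6 lower (median 0.01, and -0.17 under total counts alone). Among them G0s2, an inhibitor of adipose triglyceride lipase, had 299.8 to 346 normalized counts in the WT and 954 to 1332 in the LKO livers (1.90), with LKO2 the lowest of the LKO libraries, and the droplet coat gene Plin4 fell (log2 fold change -1.23, adjusted p = 1.1e-05).

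Carbohydrate genes were higher in 19 of 29 tested members and lower in 3 (median 0.28). Pck2, mitochondrial phosphoenolpyruvate carboxykinase, rose (1.23), as did Pdk4, an inhibitor of pyruvate dehydrogenase (1.17), and Pfkfb3, which makes an activator of glycolysis, fell (log2 fold change -1.47, adjusted p = 1.8e-07). Of 41 urea cycle and amino acid breakdown genes, 24 were higher and 5 lower (median 0.20). Ass1, argininosuccinate synthase, had 1723, 1764, 1618 and 1792 normalized counts in the WT livers and 4703, 3230.2, 3929 and 4741 in the LKO livers (log2 fold change 1.27, adjusted p = 6.8e-07), with LKO2 lowest among the LKO libraries but above all WT libraries. The annotation shares 78.6% of the exon bases counted for Ass1 with Gm5424 on the same strand, so its value is uncertain. Gnmt, which consumes S-adenosylmethionine, had 17113, 16332, 16205 and 16231 in the WT livers and 36372, 27251, 33262 and 35234 in the LKO livers (log2 fold change 1.00, adjusted p = 4.2e-07).

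Genes of the amino acid response formed a further group. ATF4 is a transcription factor that is translated when the kinases of the integrated stress response are active, and it induces genes for amino acid synthesis and transport, tRNA charging and stress hormones such as Fgf21. It binds composite C/EBP-ATF elements. Of 31 tested members of this list (36 listed), 17 were higher and 2 lower, with a median of 0.35 (0.23 with the length trend removed). Asns, asparagine synthetase, had 76.2, 53.3, 65.1 and 38.1 normalized counts in the WT livers and 493, 414, 443 and 481 in the LKO livers (log2 fold change 2.97 ± 0.15 SE, edgeR adjusted p = 2.8e-09). The lowest LKO library was far above the highest WT library.

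Nupr1, a stress-induced chromatin factor, had 19.5, 8.42, 12.8 and 10.03 normalized counts in the WT livers and 92.9, 68.1, 100.5 and 95.9 in the LKO livers (log2 fold change 2.79, adjusted p = 5.9e-07). Fgf21, a hormone that is a target of both PPARα and ATF4, had 11.7, 7.49, 13.7 and 16.04 in the WT livers and 269, 198, 272 and 239 in the LKO livers (log2 fold change 4.30, adjusted p = 7.4e-10). In both genes the 4 LKO libraries lay apart from the WT libraries. Mthfd1l, of mitochondrial folate metabolism, and Psat1, of serine synthesis, rose by 1.85 and 1.64, the arginine carrier Slc7a1 by 1.24, and Atf3 and Atf4 by 1.38 and 0.64. Fgf21 is on the list of PPARα targets and not on this one. Other members of the ATF4 list did not follow. Sesn2 fell (log2 fold change -0.66, adjusted p = 0.0029), the tRNA synthetase Aars fell slightly (log2 fold change -0.19, adjusted p = 0.03, a call lost without any 1 of the WT libraries, LKO1 or LKO4, edgeR adjusted p = 0.056 to 0.097), and Chac1, a glutathione-degrading enzyme, and Ddit3, the factor CHOP, did not pass (-0.14 and -0.16, edgeR adjusted p = 0.49 and 0.33). Ddit3 was called lower once the length trend was taken out (-0.45, edgeR adjusted p = 0.0021).

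The 250 bases before the start were read for 9550 tested genes with a RefSeq promoter (GRCm38.p6) starting within 1000 bp of the table's start. The element TGATGNAA, searched on both strands, was present in 1.81% of all these promoters, in 7 of 25 of the ATF4 list (28%), in 3.83% of those of strong rises and in 5.13% of those of strong falls. A match is a description of letters, not a site. Of the 11 strong rises with a match, the promoters of Asns, Fgf21 and Nupr1, the genes described above, are shown whole, on the strand of the gene, with the match in capitals. Their positions are chr6:7693210-7693459, minus strand for Asns, chr7:45615491-45615740, minus strand for Fgf21 and chr7:126625471-126625720, minus strand for Nupr1, and the first base of the match lies 23, 139 and 110 bases before the start.
Asns: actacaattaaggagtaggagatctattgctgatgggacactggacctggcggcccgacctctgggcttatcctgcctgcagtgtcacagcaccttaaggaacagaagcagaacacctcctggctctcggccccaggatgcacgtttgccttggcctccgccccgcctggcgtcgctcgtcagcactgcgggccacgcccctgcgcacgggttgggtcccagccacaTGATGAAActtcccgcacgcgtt
Fgf21: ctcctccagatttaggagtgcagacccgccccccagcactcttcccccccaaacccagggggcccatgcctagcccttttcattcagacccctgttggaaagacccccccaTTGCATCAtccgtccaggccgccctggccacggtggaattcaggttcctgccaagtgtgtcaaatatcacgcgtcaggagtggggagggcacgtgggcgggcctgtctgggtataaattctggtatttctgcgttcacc
Nupr1: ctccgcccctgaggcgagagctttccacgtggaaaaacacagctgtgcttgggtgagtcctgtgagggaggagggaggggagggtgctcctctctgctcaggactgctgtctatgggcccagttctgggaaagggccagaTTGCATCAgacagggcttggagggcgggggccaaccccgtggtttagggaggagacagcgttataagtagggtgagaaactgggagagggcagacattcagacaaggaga

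Matches also stood in promoters of list members with other changes, shown here as the match and the bases on each side. Atf3 (chr1:191183410-191183469, minus strand), Pck2 (chr14:55540137-55540196, plus strand) and Gars (chr6:55037945-55038000, plus strand) were higher, with log2 fold changes of 1.38, 1.23 and 0.20, the last not called with the length trend removed (edgeR adjusted p = 0.054). Aars (chr8:111033704-111033763, plus strand) was lower (-0.19) and Chac1 (chr2:119351023-119351082, plus strand) was not called (-0.14), so genes with the element went in both directions.
Atf3: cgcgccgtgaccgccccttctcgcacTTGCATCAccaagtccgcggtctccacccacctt
Pck2: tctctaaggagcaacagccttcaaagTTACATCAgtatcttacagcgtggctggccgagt
Gars: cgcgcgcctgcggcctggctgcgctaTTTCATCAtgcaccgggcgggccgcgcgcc
Aars: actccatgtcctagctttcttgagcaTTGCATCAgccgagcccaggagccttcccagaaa
Chac1: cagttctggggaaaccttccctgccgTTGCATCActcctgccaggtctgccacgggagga

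Chaperone genes fell more often than they rose. Of 28 tested chaperones of the endoplasmic reticulum and the heat shock response, 19 were lower and 4 higher, with a median of -0.32 and of -0.35 with the length trend removed. Hspa1a and Hspa1b, the inducible HSP70 genes, changed by -1.62 and -1.41, but these copies are near-identical and their reads cannot be assigned with certainty. Creld2 had 1566, 1514, 1629.8 and 1688 normalized counts in the WT livers and 727, 605, 824 and 753 in the LKO livers (log2 fold change -1.14, adjusted p = 3e-07), and Sdf2l1 changed by -1.23. Both encode proteins that assist folding in the endoplasmic reticulum, and their groups did not overlap. Hspe1, a mitochondrial co-chaperonin, was higher (0.62).

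Secreted defence proteins split by family. Of 26 acute phase genes, 8 were higher and 9 lower (median 0.01, and -0.17 under total counts alone). Saa1, a serum amyloid A protein, had 754, 864, 820.4 and 798 normalized counts in the WT livers and 399.8, 260.2, 350.2 and 375 in the LKO livers (log2 fold change -1.23, adjusted p = 1.6e-06), and Saa2 and Saa4 changed by -1.16 and -1.09. Among 37 complement and coagulation genes, 19 were lower and 12 higher (median -0.18). C4a fell by 3.01 on the log2 scale, and C6 and C8a, of the membrane attack complex, by 1.08 and 1.03. Mbl2, a lectin that starts the complement cascade, had 5539, 5302, 5302 and 5759.8 in the WT livers and 15008, 10561, 14462 and 14240.2 in the LKO livers (log2 fold change 1.31, adjusted p = 1.5e-07). C4a is close to identical to C4b, and C6 and C8a are also on the male-biased list.

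Interferon response genes showed no common direction, with 6 of 30 higher, 6 lower and 18 not called (median 0.09, and -0.09 under total counts alone). Over all tested genes, 23.4% were higher and 21.4% lower. The guanylate-binding protein Gbp6 fell (to 0.497 times the WT mean) and the antiviral Ifit2 rose (0.85). Of 16 antigen presentation genes, 8 were higher and 2 lower (median 0.23). The class I gene H2-Q1 had 109, 99.2, 73.3 and 92.3 normalized counts in the WT livers and 541, 487, 510.1 and 500.4 in the LKO livers (log2 fold change 2.45, adjusted p = 7.6e-10), although H2-Q genes share sequence with their neighbours.

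Markers of other liver cells moved with the groups as well. Of 19 macrophage and Kupffer cell markers, 17 were higher and 1 lower, with a median of 0.56, and their summed normalized counts were 6468 to 6566 in the WT and 7981 to 8855 in the LKO livers. Clec4f, which is specific to Kupffer cells, had 769, 766, 729.6 and 729 normalized counts in the WT livers and 1203, 1027, 1043 and 1151 in the LKO livers (log2 fold change 0.56, adjusted p = 3.8e-05), and Ccr2, of recruited monocytes, had 8.79, 14.97, 11.9 and 11.03 in the WT livers and 25.9, 29.6, 29.3 and 23.3 in the LKO livers (log2 fold change 1.21, adjusted p = 0.00072). Mpeg1, a pore-forming protein of phagocytes, had 1099, 1115, 1114 and 1121 in the WT livers and 564, 652, 579 and 595 in the LKO livers (log2 fold change -0.89, adjusted p = 2.4e-07). It was lower in every LKO library while the rest of the list was higher or not called. Of 21 lymphocyte and neutrophil markers, 4 had enough reads to be tested, with Cd4 lower (-0.86) and summed counts of 142 to 174 and 185 to 199.6.

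Stellate cell genes and collagens were mostly higher. Of 17 stellate cell and fibroblast markers, 16 were higher and 0 lower, with a median of 0.82, and their summed counts were 4455 to 4498 in the WT and 7945 to 8267 in the LKO livers. The matrix proteoglycan Lum had 113, 110.4, 112 and 96.3 normalized counts in the WT livers and 219, 212, 224 and 239 in the LKO livers (log2 fold change 1.04, adjusted p = 1.5e-06), and the contractile protein gene Tagln rose by 1.02. Of 21 collagen genes, 14 were higher and 3 lower (median 0.75, and 0.93 with the length trend removed). Their summed counts overlapped between the groups, at 16925 to 18471 in the WT and 16730.5 to 21054 in the LKO livers. Col1a1 had 235, 233, 267 and 212 in the WT livers and 416, 557, 613 and 417 in the LKO livers (log2 fold change 1.09, adjusted p = 2.1e-05), Col3a1 rose by 1.08 and Col1a2 by 1.05, and Col15a1, a basement membrane collagen, fell (-0.88). Col1a1 and Col3a1 are long genes, so their rises run against the length trend.

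For the remaining cell types, 7 of 20 endothelial markers were higher and 0 lower (13 and 0 with the length trend removed), with summed counts of 6707 to 6876 and 7682 to 8086. Of 11 cholangiocyte markers, 6 were higher, among them Krt19 and Epcam (1.01 and 0.77), and 1 was lower, with summed counts of 2533 to 2709 and 3171 to 3429. Alas2, the heme enzyme of red cell precursors, had 2058, 2035, 1966 and 2019.5 normalized counts in the WT livers and 990.0, 891, 952 and 937 in the LKO livers (log2 fold change -1.10, adjusted p = 8.5e-09), while the β-globin genes Hbb-b1 and Hbb-b2 rose by 0.55 and 0.67. With the length trend removed the call of Hbb-b1 was lost (edgeR adjusted p = 0.073) and that of Hbb-b2 was kept (0.0074). Hbb-b1 shares 64.5% of its exon bases with Hbb-bs on the same strand, so its value is uncertain. Of 6 tested erythroid markers, 5 were higher and 1 lower, and 1 and 1 with the length trend removed. Tested markers had passed the read filter, so none of them could be at 0 in all libraries. The part that cell numbers have in the changes of these lists was not tested.

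Fetal and injury genes were higher in 8 of 13 tested members and lower in 0 (median 0.96), at low levels apart from H19. Afp, the fetal form of albumin, had 15.6, 3.74, 19.2 and 16.04 normalized counts in the WT livers and 25.9, 32.03, 22.4 and 35.00 in the LKO livers (log2 fold change 1.07, adjusted p = 0.015), and Ly6d, a surface marker, had 11.7, 2.81, 2.75 and 6.02 in the WT livers and 36.4, 31.2, 40.97 and 32.4 in the LKO livers (log2 fold change 2.59, adjusted p = 3.6e-05). Cell cycle genes were higher in 13 of 24 and lower in 0 (median 0.42). The mitotic kinase gene Cdk1 had 13.7, 14.97, 16.5 and 30.1 in the WT livers and 61.1, 42.4, 47.8 and 51.9 in the LKO livers (log2 fold change 1.42, adjusted p = 0.00035), and Mcm6, of the replicative helicase, rose by 1.04. Of 15 targets of p53, 7 were higher, including Phlda3 (1.05) and the cell cycle inhibitor Cdkn1a (0.92), and 3 were lower, including Gtse1 (-0.80) and Mdm2 (-0.27). Their median was -0.07, and 0.01 with the length trend removed.

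Zonation genes did not follow 1 axis. Of 25 pericentral genes, 12 were higher and 6 lower (median 0.12, and -0.06 under total counts alone), and of 21 periportal genes 12 were higher and 3 lower (median 0.25). On the pericentral list, Lgr5, an R-spondin receptor, fell (log2 fold change -0.70, adjusted p = 0.002) and the glutathione S-transferase gene Gstm3 rose (1.21). On the periportal list, Aldh1b1, a mitochondrial aldehyde dehydrogenase, rose (log2 fold change 1.10, adjusted p = 9.6e-08) and Hsd17b6 fell (-0.83).

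Among 36 nuclear receptor genes, 10 were higher and 9 lower (median -0.03), where 23.4% and 21.4% of all tested genes were. Nr4a1, an orphan receptor of the immediate early response, had 83.02, 78.6, 70.6 and 75.2 normalized counts in the WT livers and 350.4, 382, 421 and 411 in the LKO livers (log2 fold change 2.35, adjusted p = 5.2e-10), and Rarb, a retinoic acid receptor that is itself induced by retinoic acid, rose by 1.06. Cyp26a1, which degrades retinoic acid, rose by 1.43, and Dhrs9, a retinol dehydrogenase, by 1.66. Over the 22 retinoid genes, 11 were higher and 3 lower (median 0.21).

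Coregulators and histone enzymes were more often lower than higher, 18 of 38 against 4 higher, but many are long genes and the counts were 14 and 5 with the length trend removed. Rcor1, a corepressor of REST, fell by 0.89 on the log2 scale and Crebbp, a histone acetyltransferase, by 0.81. Crebbp rests on LKO1, LKO3 and LKO4, since LKO2 lay within the WT range, and its log2 fold change was -1.25 without LKO2. The clock gene Clock had 488, 517, 495 and 491 normalized counts in the WT livers and 187, 289, 214 and 197 in the LKO livers (log2 fold change -1.15, adjusted p = 4.9e-06), with LKO2 the highest of the LKO libraries and still under every WT library, and the clock repressor gene Bhlhe41 changed by -1.84. Of 18 clock genes 5 were higher and 5 lower (median -0.05), where 23.4% and 21.4% of all tested genes were. Of 21 hepatocyte transcription factors, Prox1 and Zbtb20 fell (-0.95 and -0.81) and Foxa2 rose (0.75), with 6 higher and 9 lower in all.

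Iron genes were higher in 13 of 26 members and lower in 4 (median 0.31). Hamp2, a paralog of hepcidin, had 269.6, 242, 283 and 223 normalized counts in the WT livers and 2882, 1971, 2249 and 2831 in the LKO livers (log2 fold change 3.28, adjusted p = 2.8e-10), and Alas1, the rate-limiting heme enzyme, and the ferritin light chain gene Ftl1 rose by 0.73 and 0.83. Of 22 one-carbon genes 7 were higher and 4 lower (median 0.13, and -0.05 under total counts alone), where 23.4% and 21.4% of all tested genes were. Pemt, which makes phosphatidylcholine, was at 0.71 and the methionine synthase gene Mtr at -0.61.

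Several lists of short or long genes tracked the length trend. Of 74 respiratory chain subunits, 51 were higher and 0 lower, which became 19 and 7 with the length trend removed as the median went from 0.36 to 0.04. For 63 cytosolic ribosomal proteins the counts went from 52 and 0 to 34 and 0 (median 0.58 to 0.29), and for 31 proteasome subunits from 12 and 0 to 3 and 5. A list of 30 genes with long transcripts went from 0 higher and 24 lower to 6 and 8 (median -0.50 to -0.05). Citrate cycle genes were 10 higher and 3 lower of 25 (median 0.17, and -0.01 under total counts alone), with Idh2 the furthest up (0.85). The scavenger receptor gene Lrp2, on the long list, changed by -2.25 and by -1.80 with the trend removed. In LKO2, which had the WT slope, 49 of the 63 ribosomal protein genes lay above all WT libraries and 3 below them, where 34.0% and 33.6% of all genes did. The same counts were 23 and 15 of 74 for the respiratory chain and 2 and 18 of 31 for the proteasome.

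**Figure D4:**
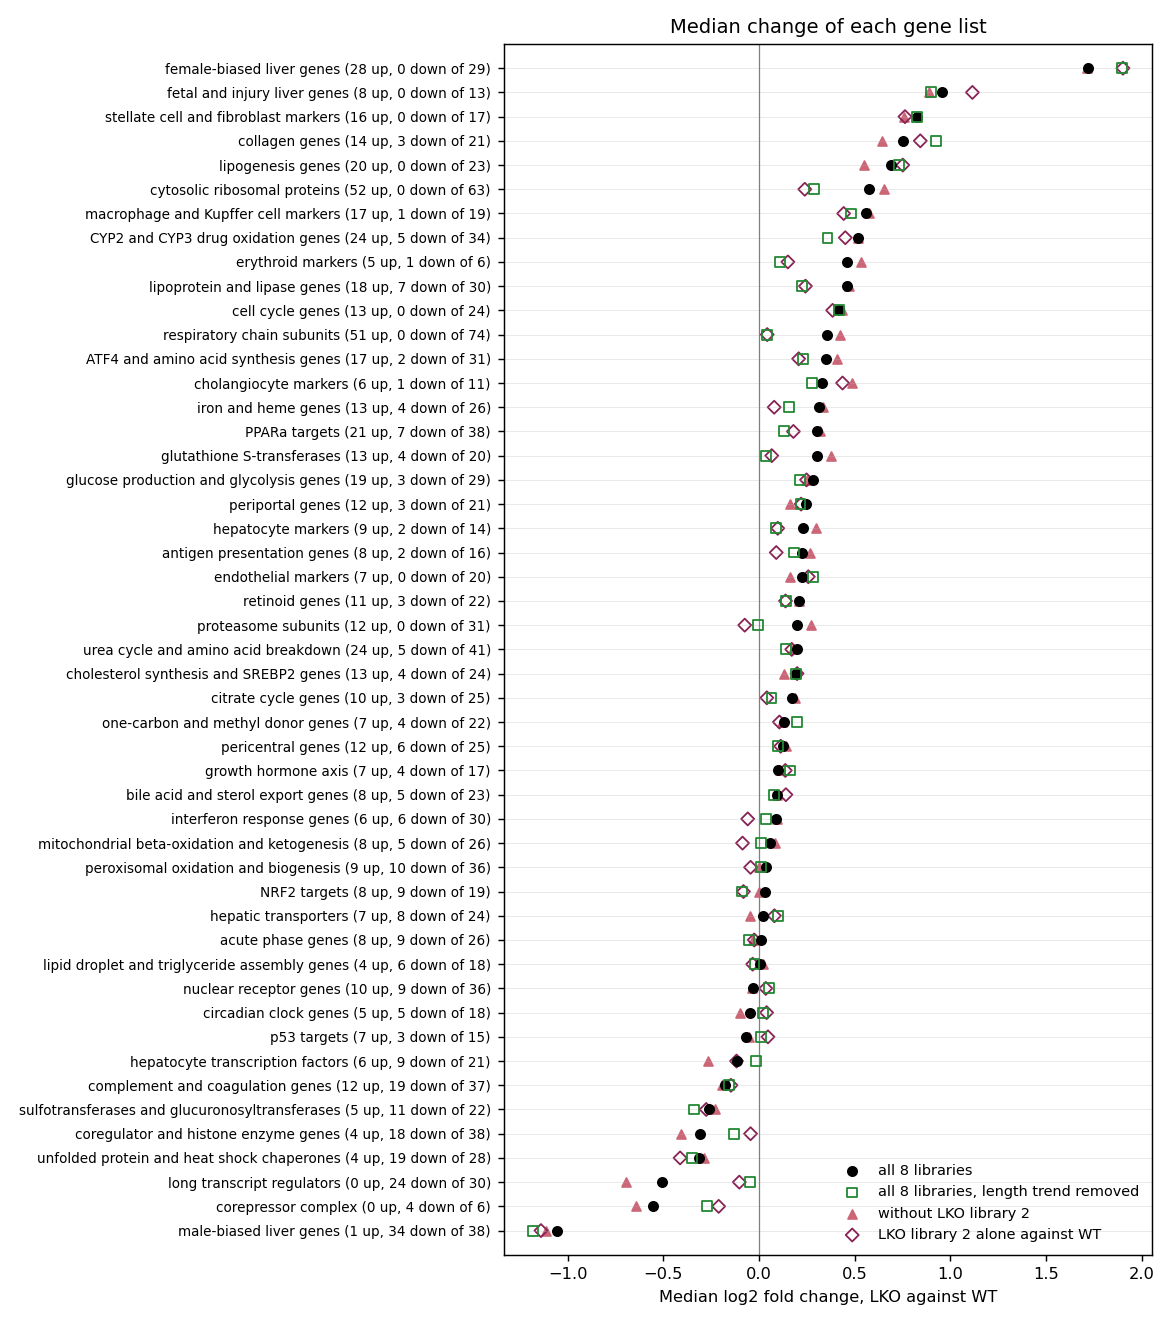
Median log2 fold change of each gene list (horizontal axis) in all 8 libraries, with the length trend removed, without LKO library 2 and for LKO library 2 alone, with the number of members called up and down of those tested beside its name. Female-biased and male-biased genes stand at 1.72 and -1.06 and lie between 1.72 and 1.90 and between -1.18 and -1.06 in all 4 fits, while the long transcript, respiratory chain and proteasome lists move towards 0 when the length trend is removed.

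Within 5 Mb of Gps2 on chromosome 11, 125 genes were tested, 44% were called and 1.6% passed a log2 fold change of 1, against 44.8% and 4.63% over all genes. Chromosome 4 held 780 of the 12220 tested genes and 27 of the 169 strong falls. Several of these falls are Mup genes, which overlap and are near-identical, so they are not independent. Outside the 51 lists, the genes with large changes included the leptin receptor Lepr (61.2 to 83.3 normalized counts in the WT and 404 to 502 in the LKO livers, 2.65), the lysolipid transporter Mfsd2a (2.37) and the corticosteroid-binding globulin Serpina6 (3926 to 3969 and 12856 to 14231, 1.78), and the serotonin and dopamine synthesis enzyme Ddc (742 to 756 and 163 to 224, -1.91), named after their values were seen. In all, 98 of the 397 strong rises and 42 of the 169 strong falls were on a list.

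GPS2 occupancy in WT liver was then set beside the changes. A peak of the deposited GPS2 list (48968 peaks, 1 ChIP-seq library, coordinates of mm9) counted for a gene when it lay within 1000 bp of a start site of the same build, which could be asked for 11156 tested genes. Such a peak was present at 76.7% of all genes, at 39.1% of strong rises (142 of 363, exact 95% binomial interval 34.1 to 44.3) and at 59.5% of strong falls (91 of 153, 51.3 to 67.3). The share with a peak rose with the WT level of the gene, from 53.4% over all genes in the group with the lowest level (up to 120 normalized counts) to 92.7% in the group with the highest (490 and more), so the classes were also compared within 3 equal groups by level. In the lowest group, 32.1% of strong rises (98 of 305) and 47.1% of strong falls had a peak, against 57.1% of genes that were not called. Strong rises with few or no WT reads passed the read filter through the LKO libraries, so levels within this group were not fully matched. In the middle group the shares were 69.7%, 63.4% and 84.7%. In the highest group they were 84% (of 25 genes, interval 63.9 to 95.5), 75% (of 44 genes, 59.7 to 86.8) and 93.4%. The intervals cover counting error only, and the single ChIP-seq library has no replicate.

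**Figure D5:**
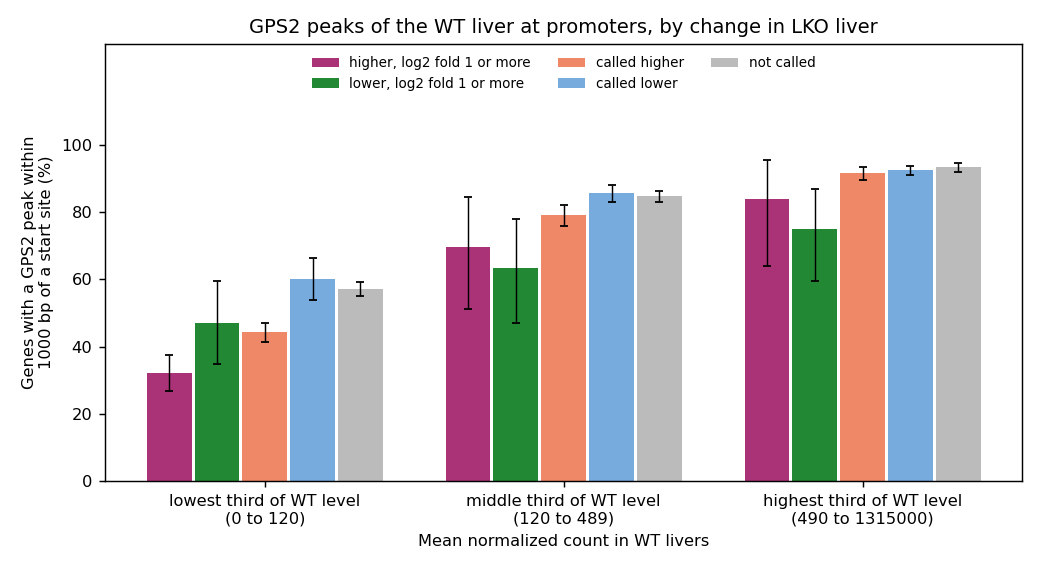
Share of genes with a GPS2 peak within 1000 bp of a start site (percent, vertical axis) in 3 equal groups by WT expression level (horizontal axis, mean normalized count), by class of change in LKO liver, with exact 95% binomial intervals as error bars. At the lowest level the genes with a rise of log2 fold 1 or more have the lowest share, 32.1%, and at the highest level all classes lie between 75% and 93.4%.

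By list, a promoter peak was found at 35 of 38 PPARα targets, 21 of 23 lipogenesis genes, 16 of 17 growth hormone axis genes and 24 of 31 ATF4 genes. It was found at 13 of 29 female-biased and 25 of 38 male-biased genes, and at 2 of 18 macrophage markers, 3 of 17 stellate cell markers and 6 of 21 collagens. RNA polymerase II at promoters was measured in 1 library per genotype, so its values have no replicate check. Total tags were alike (11.7 and 11.9 M). The genes given here were picked after their values were seen. Cyp2a4 had 14 tags in the WT and 207 in the LKO liver, Cyp4a14 1 tag and 35 tags, Fgf21 82 tags in the WT and 198 in the LKO liver and Apoa4 94 tags in the WT and 201 in the LKO liver, while Elovl3 had 88 tags in the WT and 40 in the LKO liver. In these genes the tags went in the direction of the RNA. Cux2 had 23 tags in the WT and 15 in the LKO liver, Bcl6 553 tags in the WT and 618 in the LKO liver and Cyp7b1 64 tags in the WT and 67 in the LKO liver, which was not the direction of their RNA. Over whole classes the median log2 ratio of tags was 0.07 for strong rises, -0.05 for strong falls and 0.07 for all genes.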

How the data were processed

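Livers of 8 mice (4 WT, 4 LKO) gave poly(A)-selected RNA-seq libraries (TruSeq, Illumina HiSeq). The deposited table held raw counts of reads in each gene, made by the authors, with gene positions and exon lengths, and the authors' fold changes and p-values between the groups, which were not used. The study's methods name HISAT2 with mm9 and counting of tags in exons with HOMER, and the submitters' notes also name featureCounts, SAMtools and Bowtie2, mm10 and GRCm38. Gene positions lay within 1000 bp of GRCm38.p6 RefSeq genes for 98.5% of 14562 genes, against 5.48% of 13118 for NCBIM37 (mm9), so its positions are on GRCm38. Whether counting used strand is not given in the sources used here, so overlapping, antisense and near-identical genes are uncertain. The deposited peak files, with peak scores and tag counts (signal) made by the authors with HOMER, are on mm9, and genes were joined to them by symbol.

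Groups came from the sample titles. No source used here ties the libraries to litters or days, and the p-values measure the spread between these samples, which may be in part technical. Pairs of libraries within a group were set against counting noise (chi-square per gene, higher when they differ more). It was 1.69 to 2.53 among the WT pairs, 1.53 for LKO1 and LKO4, and 9.14 to 29.1 among the other LKO pairs. The cause of this difference was not tested. Counts were filtered (filterByExpr) and scaled by TMM, and a quasi-likelihood model with group as its only term was fitted to all 8 libraries with edgeR 4.0.16 (R 4.3.3, limma 3.58.1). Calls were made at a Benjamini-Hochberg adjusted p below 0.05 over all 12220 genes. The length trend was removed with a lowess curve (span 0.2) of each library's deviation on log exon length, entered as offsets. Scripts were tested on simulated data. Alternatives were DESeq2 1.42.0, other scalings, no filter, a replicate block and leaving out each library. The library totals of 13.2 to 20.1 M reads set the precision, and intervals cover counting error only.

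The members and the 51 gene lists were chosen with earlier results of these data known, the lists from general knowledge of liver genes. Lists are described by counts and medians, without a set test. Named genes were the genes of the complex, the 15 largest rises and falls (called with and without the length trend, groups not overlapping, mean of at least 100 normalized counts), up to 4 called members of each list with the largest change and up to 2 in the other direction, and Ppara, Cyp4a14, Pdk4 and Fgf21. Further genes (Acot1, Alb, Atf3, Atf4, Chac1, Clec4f, Cyp7a1, Ddit3, Fasn, Gars, Ghr, Igf1, Mlxipl, Mup20, Prlr, Psat1, Scd1, Slc7a1, Srebf1, Stat5b and Trim24) were named after their values were seen. A pair of genes that the rule names is not reported here. Promoter sequences are from RefSeq (GRCm38.p6), and genes with no entry there were not searched.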

Additional observations from a re-analysis of the deposited data

Results flagged for a closer look

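Single libraries stood apart from the other 3 of their group (a gap to the nearest library above Dixon's 95% limit for 4 values) in 30 of 495 groups of 4 values examined, where chance gives about 1 in 20. LKO2 was the library apart in 12 of them, WT1 in 6, LKO3 in 4, WT4 in 3, WT3 and LKO4 in 2 each and LKO1 in 1. All values are normalized counts, and the cause was not tested.

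In LKO2, several genes were nearer to WT than the other LKO libraries were. Its value was 5494 for Ppara (the others 3420 to 3730), 90827 for Apob (55333 to 61275), 1240 for Hlf (1012 to 1020), 9046 for C8a (8020 to 8115) and 91.3 for Zbtb20 (75.2 to 77.1). It was 3173 for Etfb (4645 to 4860), 9651 for Acaa1b (12698 to 12951), 954 for G0s2 (1294 to 1332), 3258 for Agxt (4114 to 4235), 985 for Aldh1b1 (1138 to 1170) and 1353 for Psmb6 (1788 to 1873). For Mup1 it was 2.40 where the others had 0.

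Among the other LKO libraries, LKO3 had 0.975 for Moxd1 (0 in the others), 10819 for Sc5d (12723 to 12760), 1350 for Acox2 (1414 to 1426) and 77.1 for Col16a1 (48.8 to 51.7). LKO4 had 616 for Tmeff2 (554 to 564) and 6.48 for Lrp2 (10.4 to 10.7), and LKO1 had 528 for Mdm2 (597 to 610).

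Among the WT libraries, WT1 had 9.77 for H19 (2.75 to 3.01), 80.1 for Mup1 (111 to 117), 520 for Hspa1b (451 to 457), 17113 for Gnmt (16205 to 16332), 9850 for Gstp1 (9096 to 9187) and 553 for Aldh1b1 (503 to 511). WT3 had 2539 for Echs1 (2583 to 2591) and 33.9 for Col16a1 (24.3 to 25.1), and WT4 had 784 for Srebf2 (908 to 924), 96.3 for Lum (110 to 113) and 1899 for Cox7b (1651 to 1679).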

How the results depend on the processing

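Gps2 kept its direction and its call in every alternative. DESeq2 called 2396 genes higher and 2753 lower, the edgeR likelihood ratio test 3007 and 2697, and DESeq2-type (RLE) size factors in edgeR 2660 and 2807, beside 2856 and 2621. Scaling by total counts alone gave 1561 higher and 4632 lower, of which 264 and 288 were strong (log2 fold change of 1 or more), beside 397 and 169. Without the filter on low counts 632 genes rose strongly. Leaving out each library gave 2300 to 3425 higher and 2065 to 3545 lower, with 409 to 473 strong rises and 153 to 314 strong falls. The highest of these, 3425, 3545 and 314, came without LKO2 (277 with the length trend removed as well), and LKO2 alone against WT, an alternative chosen after seeing the data in which the spread came from the WT libraries and LKO2 was assumed to vary like them, gave 2012 higher and 1732 lower. With the replicate block 2960 were higher and 2778 lower (404 and 183 strongly), and no named gene changed its call. Same-numbered WT and LKO libraries deviated together with correlations of 0.05, 0.10, 0.02 and 0.12, and 2 of 4 pairs correlated best with their own number. This check cannot tell whether they share a litter, day or preparation beyond the number.

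Of 245 named genes, 232 kept direction and side of the threshold with the length trend removed, 236 under total counts, 241 with DESeq2, 243 without LKO2 and 215 with LKO2 alone. Directions reversed for Tbl1xr1 with the length trend removed (log2 fold change 0.17, and 0.17 with the replicate block too), and, with LKO2 alone, for Etfb (-0.035), Nrip1 (0.059), Psma7 (-0.011) and Ppara (0.060). With GPS2 peaks counted within 5000 bp of a start site the shares were 54.0% of strong rises, 79.7% of strong falls, 75.2% of all genes called higher, 92.4% of those called lower and 82.2% of genes not called, beside 39.1%, 59.5%, 68.0%, 86.9% and 76.3% within 1000 bp. At this depth 276 of the 397 strong rises and 86 of the 169 strong falls had a mean below 100 normalized counts.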
